A study of Homo sapiens with 5 samples.

Results

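SC79 at 4 µg/mL was compared with the control in KGN cells, an established human line derived from a granulosa cell tumour. Granulosa cells surround the oocyte in the ovarian follicle and convert androgens to oestrogens. Polyadenylated RNA was sequenced after 24 h, and estimated counts were summed per gene name and scaled with the trimmed mean of M values (TMM) over 5 libraries. Of 35453 gene names, 12484 reached 100 scaled counts in the SC79 or the control library and were compared. The other 3 libraries came from cells given follicle-stimulating hormone (FSH) at 100 ng/mL, forskolin (FSK, which raises cAMP) or phorbol myristate acetate (PMA, which activates protein kinase C). For FSK and PMA the labels and the protocol differ in the unit of the dose, so neither dose is given. Every culture, the control included, stood in charcoal-stripped DMEM/F12 with 100 nmol/L androstenedione. The control received ethanol per the protocol and is titled as untreated. Each group is 1 library, made from 270 ng of RNA that pools 90 ng from each of 3 cultures, grown in different weeks. There is therefore no replicate error, no difference below has a replicate check, and no p-value was computed. KGN is a tumour line, and the pooling hides any spread between the 3 cultures.

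SC79 is a small molecule that activates the kinase AKT, also called protein kinase B. AKT acts downstream of PI3 kinase in growth factor and gonadotropin signalling, and it keeps FOXO transcription factors out of the nucleus. Several groups of genes described below answer to other factors. NRF2 (gene NFE2L2) is held low by KEAP1 and, when released by electrophiles or oxidants, switches on detoxifying enzymes through antioxidant response elements. Interferons act through JAK kinases on factors such as STAT2 and IRF9, which bind interferon-stimulated response elements. HSF1 acts through heat shock elements, and MTF1 acts through metal response elements.

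Over genes with a name, rounded per gene, the control library held 58811603 and the SC79 library 50218703 estimated counts, and the other 3 held 52168956 to 53493911. The TMM factors were 0.989 for control and 1.00 for SC79. The 10 most abundant genes held 6.66% to 8.77% of the counts across the 5 libraries, and mitochondrially encoded genes held 1.27% in control and 1.28% with SC79. Folds are given with exact 95% intervals in brackets, which cover counting error only. For 100 counts in each library such an interval runs from 0.750 to 1.33. Log2 ratios carry a pseudocount of 1 scaled count. The 16 granulosa markers listed summed to 120100 scaled counts in control and 118310 with SC79, and 1 of them was under 10 in both. These sums do not by themselves establish the cell type. In control, theca and stroma markers summed to 936340 and epithelial markers to 59814. The granulosa factor FOXL2 had 9976 and 10392. The FSH receptor gene FSHR had 92.7 and 73.1 scaled counts, just outside the minimum of 100, while WNT7B with 102 in the higher library was just inside it.

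SC79 left most genes close to control. Of the 12484 genes, 90.7% lay within 1.2-fold of control, the median log2 ratio was -0.007 and the central 95% of genes lay between -0.34 and 0.34. At 2-fold, 28 genes (0.224%) were higher and 5 (0.0401%) lower. At 1.5-fold, 91 genes (0.729%) were higher and 48 (0.384%) lower. A looser rule was used for gene lists, at least 1.2-fold with an interval that leaves out 1. It was met by 462 genes (3.7%) that were higher and 562 (4.5%) that were lower. Scaling by total counts instead gave 573 higher and 460 lower. The authors' deposited normalized signal does not equalise library totals and moved the median of all genes by -0.27, which gave 86 higher and 6851 lower, so changes on that scale are given relative to the median. Many of the largest ratios belong to genes that share sequence with copies, so the genes were also read by the share of their 31-base words found in no other gene. Among the 10713 genes with at least 80% own words, 40 (0.373%) were higher and 38 (0.355%) lower by 1.5-fold or more. Of these, 4 (0.0373%) and 2 (0.0187%) were past 2-fold. The 1.2-fold rule took in 319 (2.98%) and 489 (4.56%) of them.

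**Figure D1:**
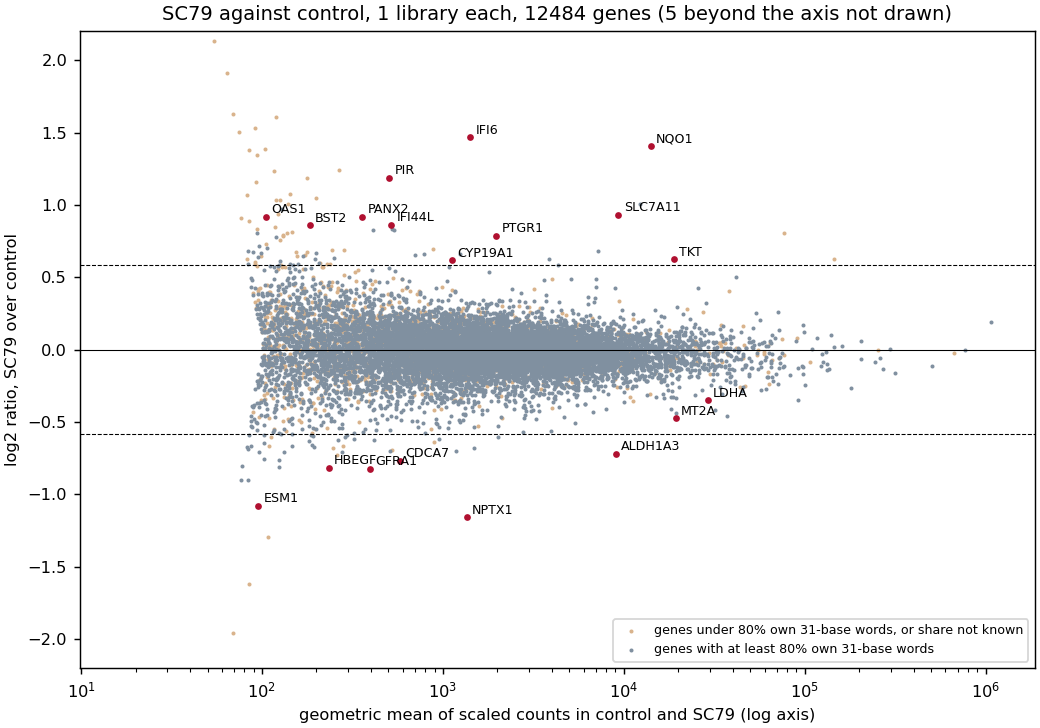
Log2 ratio of SC79 over control (y axis) against the mean scaled count of the 2 libraries (log x axis) for the genes compared, 1 point per gene, 1 library per side. Most points lie within 1.2-fold, and the labelled high genes are mainly NRF2 targets (NQO1, PIR, SLC7A11) and interferon-stimulated genes (IFI6).

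The 15 highest genes with mostly their own sequence, of which 14 are given here, fall mainly in 2 groups, targets of NRF2 and interferon-stimulated genes. IFI6, an interferon-induced mitochondrial protein, led at 1.47, followed by NQO1, a quinone reductase, at 1.40 and PIR (pirin, an iron-binding nuclear protein) at 1.19. SLC7A11, the cystine carrier, was at 0.93, and PTGR1, which reduces prostaglandin ketones, was at 0.79. OSGIN1, an oxidative stress-induced growth inhibitor, was at 0.82. The antiviral genes OAS1, IFI44L, BST2 and MX1 lay between 0.83 and 0.92. Outside these groups were PANX2, a channel protein, at 0.92, KCNJ2, an inward rectifier potassium channel, at 0.83, BSN, a presynaptic scaffold, at 0.81 and FAM241B at 0.77. In abundant transcripts, BSN had 69.8 scaled counts in control and 122.9 with SC79, and FAM241B had 87.9 and 142.6. These control values lie under the minimum, which is asked only of the higher library. Genes near the minimum can therefore enter through the library in which they are higher. In the FSK library KCNJ2 had 691 scaled counts against 696 with SC79 and 390.4 in control, and PANX2 had 434, 489 and 259.

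NRF2 targets that were higher with SC79 came from each of the roles in the list. Of 58 listed genes 53 were compared, and 26 were higher by the 1.2-fold rule, where 3.7% of all genes were, and 0 were lower. The listed genes include NFE2L2 itself, its inhibitor KEAP1 and the repressor BACH1. The list median was 0.25 against -0.007 for all genes, and 50 of 53 lay above 0. On the authors' normalized signal the list median lay at -0.02, or 0.26 above the median of all genes. Of the 42 members with mostly their own sequence, 18 were higher, where 2.98% of such genes were. The list was drawn up with results of these data known, so its counts describe it and do not test it.

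The largest ratios were among enzymes that reduce quinones and aldehydes, where 9 of 11 genes were higher. NQO1 (ENSG00000181019, GRCh38 chromosome 16, 69706996 to 69726951, minus strand) had 8669 scaled counts in control, 8716 with FSH, 13435 with FSK, 22952 with SC79 and 3863 in the PMA library, a fold of 2.65 [2.58 to 2.71]. SC79 had the highest of the 5 values and PMA the lowest, below control. PTGR1 had 1498 scaled counts in control, 1527 with FSH, 1828 with FSK, 2585 with SC79 and 1939 in the PMA library, 1.73 [1.62 to 1.84] fold. EPHX1, microsomal epoxide hydrolase, had 3553 and 5339.8 in control and SC79, a log2 ratio of 0.59. The aldo-keto reductases AKR1C3 (0.66), AKR1B1 (0.49), AKR1C1 (0.49) and AKR1C2 (0.46) were all higher. AKR1C1 and AKR1C2 share sequence with each other, so AKR1C1 to AKR1C4 were also summed, which gave 1.51-fold [1.42 to 1.60]. The carbonyl reductases CBR1 and CBR3 stayed below the rule, at 0.25 and 0.06.

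NADPH, the reducing cofactor these enzymes use, comes in large part from the pentose phosphate pathway. TKT, transketolase of that pathway, had 15246 scaled counts in control, 15079.7 with FSH, 15639 with FSK, 23501 with SC79 and 8959 in the PMA library, 1.54 [1.51 to 1.57] fold. SC79 stood above the other 4 libraries. The NADPH and pentose phosphate genes PGD (0.19), TALDO1 (0.17), ME1 (0.22) and IDH1 (0.23) were above 0 and below 1.2-fold. PIR (ENSG00000087842, chromosome X, 15384799 to 15493564, minus strand) had 334 scaled counts in control, 302 with FSH, 526 with FSK, 762 with SC79 and 199 in the PMA library, 2.28 [2.01 to 2.60] fold, again highest with SC79 and lowest with PMA.

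In glutathione metabolism 5 of 11 genes were higher. SLC7A11 (ENSG00000151012, chromosome 4, 138164097 to 138242349, minus strand), which imports cystine for glutathione synthesis, had 6764 scaled counts in control, 6498 with FSH, 21677 with FSK, 12917 with SC79 and 3024 in the PMA library, 1.91 [1.85 to 1.97] fold. FSK, not SC79, gave its highest value. The transferase MGST1 (0.48), the reductase GSR (0.37), the transferase GSTM3 (0.34) and the exporter ABCC3 (0.30) were the other 4. The 2 subunits of glutamate-cysteine ligase, the limiting enzyme of glutathione synthesis, were at 0.25 (GCLC) and 0.12 (GCLM), both below the rule. GSTM1 was the one member of this role below 0, at -0.10 with an interval of 0.796 to 1.09-fold.

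Thioredoxin reductase, TXNRD1 (ENSG00000198431, chromosome 12, 104215779 to 104350305, plus strand), had 34977 scaled counts in control, 34081 with FSH, 30094 with FSK, 49596 with SC79 and 46745 in the PMA library, 1.42 [1.40 to 1.44] fold. Here the PMA library lay close to SC79, while FSH and FSK lay below control. Sulfiredoxin, SRXN1, was at 0.49 with only 15.1% own words, TXN, thioredoxin itself, at 0.21 and PRDX1, a peroxiredoxin, at 0.12. The ferritin chains, which store iron, were higher: FTL had 57818 scaled counts in control, 58039 with FSH, 74744 with FSK, 101261 with SC79 and 39414 in the PMA library, 1.75 [1.73 to 1.77] fold, and FTH1 had 117461 scaled counts in control, 110251 with FSH, 96217 with FSK, 181486 with SC79 and 89928 in the PMA library, 1.55 [1.53 to 1.56] fold. Ferritin has many processed copies in the genome, and with the copies added the folds were 1.75 for FTL and 1.55 for FTH1. HMOX1, haem oxygenase, had 373 and 423 scaled counts, and the interval of the fold, 0.985 to 1.31, spans 1. The transcript of NRF2 itself was level. NFE2L2 had 9715 in control and 9749.9 with SC79, a fold of 1.00 [0.976 to 1.03]. KEAP1, its inhibitor, was at 0.15 and BACH1, the repressor of the same sites, at -0.03. NQO1 also answers to the aryl hydrocarbon receptor, and a part of that receptor in its difference was not tested. Of 8 targets and partners of the receptor compared, NQO1 was the only one past the rule. Of all genes, 3.7% were higher and 4.5% lower by that rule. CYP1B1 was at -0.12, TIPARP at -0.04 and AHRR at 0.03, and CYP1A1 was under the minimum.

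**Figure D2:**
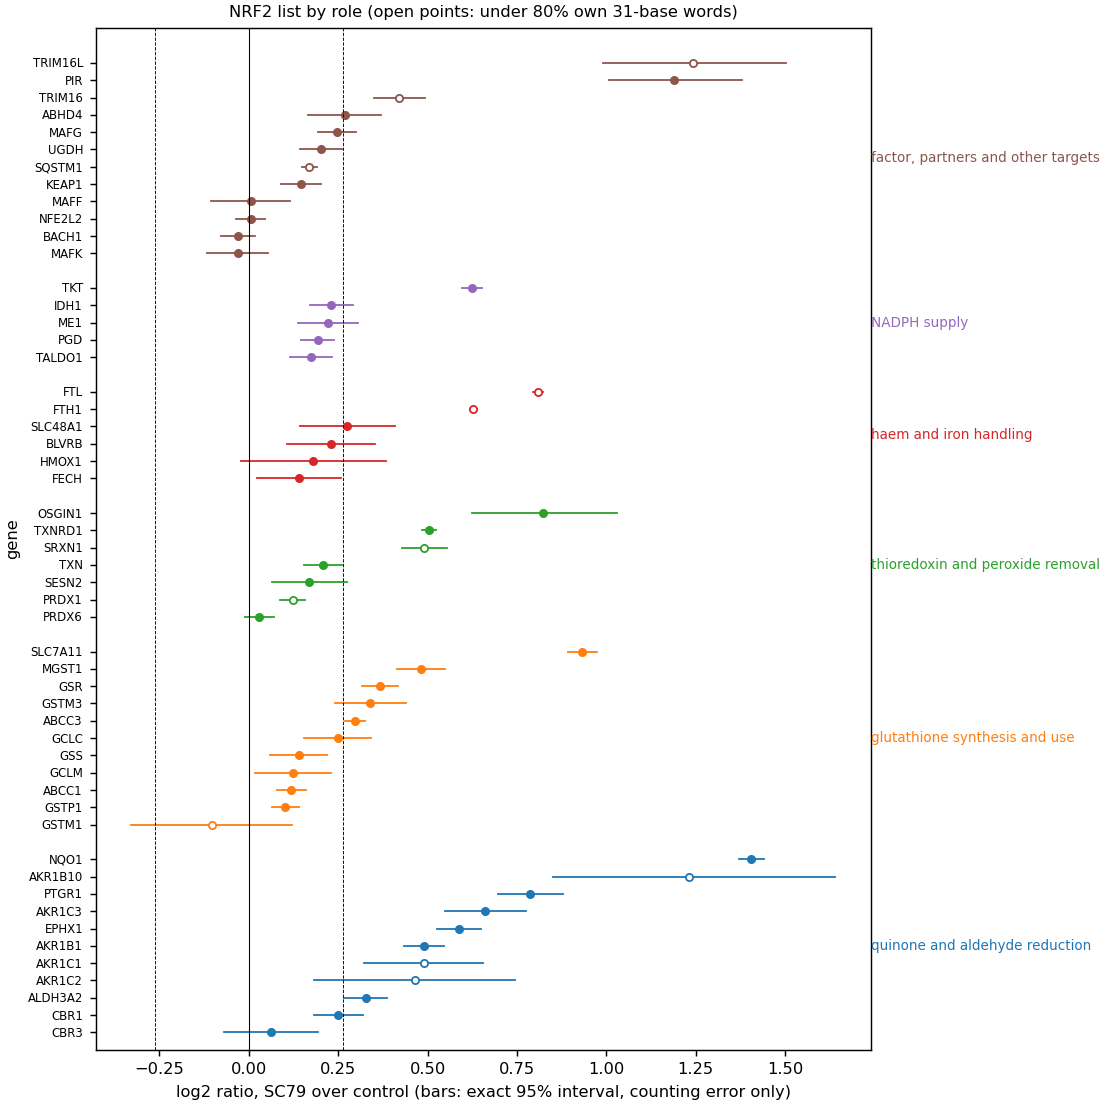
Log2 ratio of SC79 over control (x axis) for 52 of the 53 NRF2 targets compared, grouped by role on the y axis, with exact 95% intervals that cover counting error only (1 library per side). All but 3 of the 52 points lie right of 0, NQO1 farthest at 1.40. The points include the factor gene NFE2L2, its inhibitor KEAP1 and the repressor BACH1, which lie near 0.

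Promoters were searched for the sites of these factors, to show what sequence the members carry close to their start. The RefSeq promoter table for GRCh38.p14 was used, and only the 250 bases before a start, on both strands, for 27305 gene symbols. These have 35116 promoters, and a symbol counted as holding a site if any of its starts did. Each sequence printed here and below is from the first listed start with a match. MX1 and EPHX1 have 3 starts listed, and TXNRD1 and IFI27 have 2. The antioxidant response element, searched as TGAC, any 3 bases and GCA, was in 8 of 42 matched members of the NRF2 list (19%), KEAP1 among them. It was in 3.22% of all symbols. Among the 19 matched targets that were higher with SC79, 2 held it, TXNRD1 and EPHX1. The letters of these sites are shown for both and for CBR1, GCLM and GSTP1, which hold it and stayed below 1.2-fold. Capitals mark the match, which reads on the reverse strand where it starts with TGC. A match is a description of letters and not a site shown to be bound, and these windows cannot show elements farther upstream.
TXNRD1: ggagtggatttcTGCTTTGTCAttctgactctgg
EPHX1: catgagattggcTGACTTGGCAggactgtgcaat
CBR1: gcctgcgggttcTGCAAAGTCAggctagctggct
GCLM: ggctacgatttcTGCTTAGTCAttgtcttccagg
GSTP1: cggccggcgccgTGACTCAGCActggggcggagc
These stretches lie at chr12:104286917-104286950 (plus strand), chr1:225825264-225825297 (plus), chr21:36069852-36069885 (plus), chr1:93909444-93909477 (minus) and chr11:67583734-67583767 (plus). In the same order, the log2 ratios of these genes were 0.50, 0.59, 0.25, 0.12 and 0.10, so a match near the start went with values on both sides of the 1.2-fold rule.

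Interferon-stimulated genes held the second group of higher genes. Of 64 listed genes 60 were compared, 19 were higher by the 1.2-fold rule, where 3.7% of all genes were, and 0 were lower. The list median was 0.17, and on the authors' normalized signal it lay at -0.11, or 0.17 above the median of all genes. Of 54 members with mostly their own sequence, 16 were higher. By role, 6 of 9 IFI and IFITM genes were higher, 3 of 7 OAS and IFIT genes, 7 of 20 sensors and effectors, 2 of 10 genes of the ISG15 system and its relatives, and 1 of 14 signalling factors. This list, too, was chosen with earlier results known.

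IFI6 (ENSG00000126709, chromosome 1, 27666061 to 27672218, minus strand) had 848 scaled counts in control, 832 with FSH, 1065 with FSK, 2345 with SC79 and 844 in the PMA library, 2.76 [2.56 to 2.99] fold. SC79 stood apart from the other 4 libraries, which lay between 832 and 1065. IFI44L, an interferon-induced antiviral protein, had 384 scaled counts in control, 401 with FSH, 355 with FSK, 699 with SC79 and 325 in the PMA library, 1.82 [1.61 to 2.06] fold. IFI27, of the same family as IFI6, had 3102 scaled counts in control, 3329.6 with FSH, 2837 with FSK, 4792 with SC79 and 2744 in the PMA library, 1.54 [1.48 to 1.62] fold. In both genes SC79 was the highest of the 5 libraries. The membrane proteins IFITM1, IFITM2 and IFITM3, which block virus entry, share sequence, and their sum was 1.28-fold higher [1.24 to 1.31].

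Among antiviral effectors, BST2 (tetherin, which holds budding virus at the membrane) had 135 scaled counts in control, 161 with FSH, 134 with FSK, 246 with SC79 and 51.5 in the PMA library, 1.82 [1.47 to 2.25] fold. MX1, a dynamin-like GTPase, had 400.4 scaled counts in control, 461 with FSH, 397 with FSK, 710.1 with SC79 and 424 in the PMA library, 1.77 [1.57 to 2.005] fold. SC79 was highest for both, and PMA was lowest for BST2. OAS1, which makes the 2-5A messenger of RNase L, had 75.3 in control and 143 with SC79, and its relatives OAS2 and OAS3 were at 0.66 and 0.16. OAS1 was under the minimum in control and entered the comparison through the SC79 library. ISG15, a ubiquitin-like modifier, was at 0.57, and DHX58, an RNA sensor of the RIG-I family, at 0.56. Other members of the same family of sensors differed less or not at all: IFIH1 was at 0.27 and DDX58, RIG-I itself, at -0.08 with an interval of 0.892 to 1.01-fold. IFIT1 was at 0.30, IFIT2 at 0.15, IFIT3 at 0.13 and SAMD9L at -0.12.

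The signalling layer of the pathway lay close to control. IRF9 was the one factor past the rule, at 0.41 with 50.1% own words. STAT2 was at 0.23 and IRF7 at 0.23, and the receptors and kinases IFNAR1 (-0.10), IFNGR1 (-0.12) and JAK2 (-0.18) were slightly below 0. Markers of immune cells, which answer strongly to interferon, were low. CD3E, MS4A1, FCGR3A and NKG7 were at 0 in both libraries, 8 of the 12 markers were under 10 scaled counts in both, and the summed level of 903 in control and 1191 with SC79 was mostly CD68 (791 and 1064), which lysosomes of many cells contain. Whether fewer cells carry a transcript or each cell holds less of it cannot be told apart in RNA from whole cultures.

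Genes of MHC class I antigen presentation, which interferon also raises, were not among the higher genes. Of 15 compared, 0 were higher and 1 was lower by the 1.2-fold rule, where 3.7% and 4.5% of all genes were. In a list of 15, both counts are near those shares. The median was -0.16 and 14 lay below 0. B2M, the light chain, had 109916 scaled counts in control, 110439 with FSH, 140940.0 with FSK, 92751 with SC79 and 134019 in the PMA library, 0.844 [0.836 to 0.851] fold, lowest with SC79. HLA-F was lowest at -0.53, HLA-B was at -0.25 and HLA-E at -0.22, and ERAP2, which trims peptides, at -0.04. HLA genes share sequence, so the ratios of single HLA genes are uncertain. The one member above 0 was the immunoproteasome subunit PSMB10, at 0.10.

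**Figure D3:**
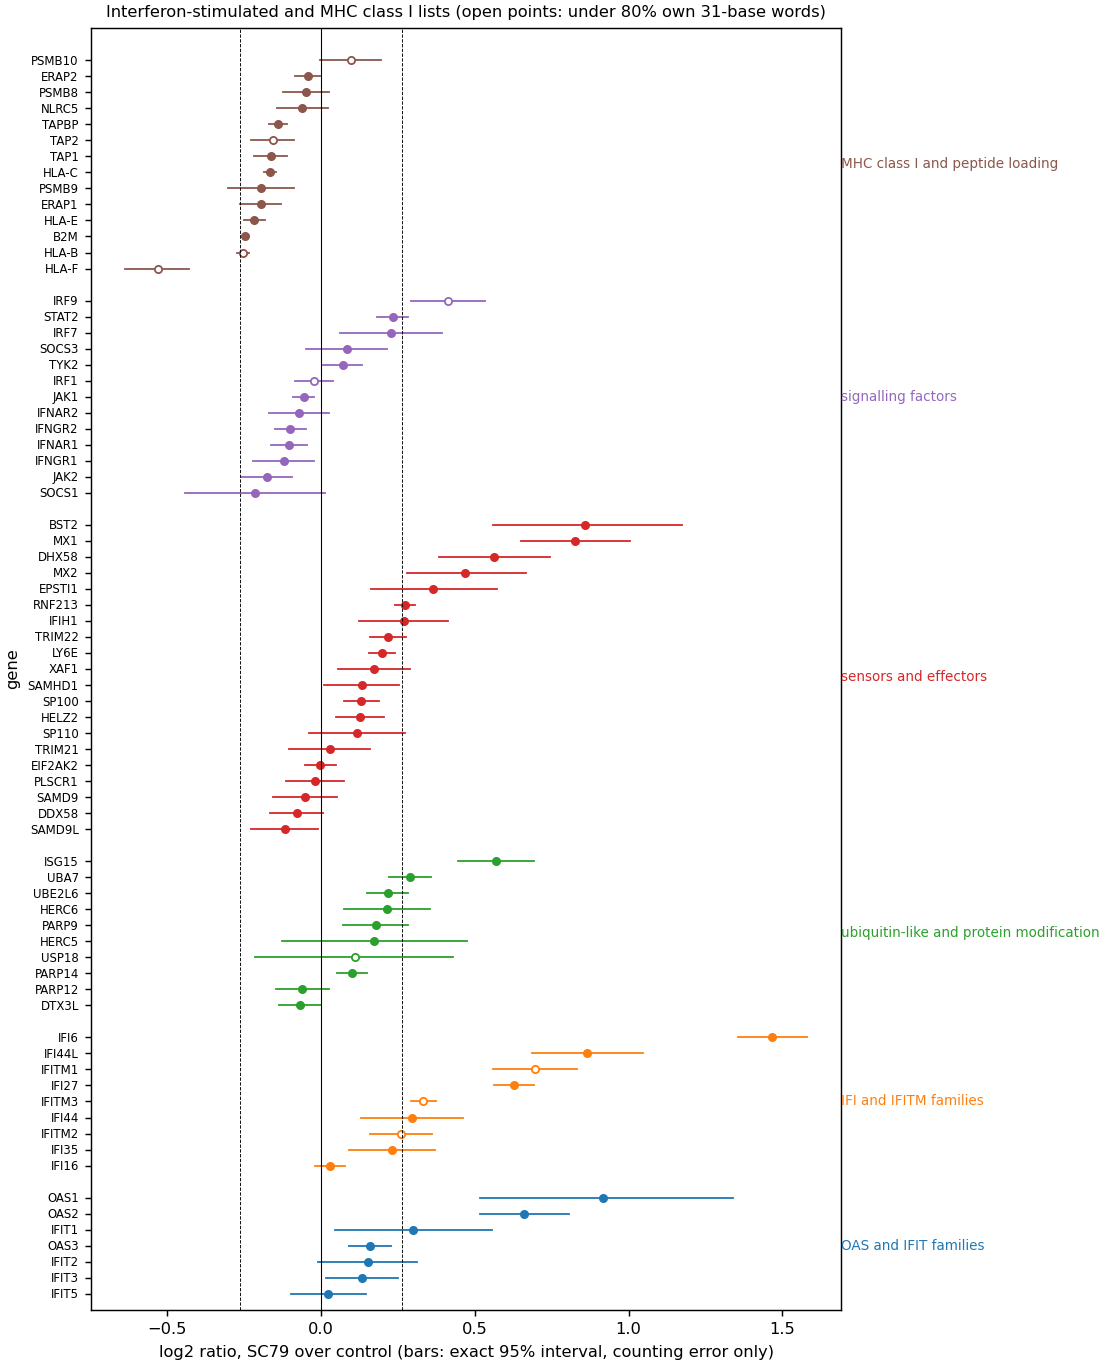
Log2 ratio of SC79 over control (x axis) for 59 of the 60 interferon-stimulated genes by role and for 14 of the 15 MHC class I genes (y axis), with exact 95% intervals that cover counting error only (1 library per side). IFI6 lies farthest right at 1.47, signalling factors lie around 0 and 13 of the 14 MHC class I genes drawn lie left of 0.

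The interferon-stimulated response element was searched as GAAA, any 2 bases and GAAA on both strands of the 250 bases before a start. It was in 24 of 51 matched members of the list (47.1%) and in 3.71% of all symbols. It was in 12 of the 15 matched members that were higher with SC79. IFI6 carries 3 copies, shown in its whole upstream stretch at chr1:27672193-27672442, minus strand, written 5′ to 3′ towards the start, with the matches in capitals.
IFI6: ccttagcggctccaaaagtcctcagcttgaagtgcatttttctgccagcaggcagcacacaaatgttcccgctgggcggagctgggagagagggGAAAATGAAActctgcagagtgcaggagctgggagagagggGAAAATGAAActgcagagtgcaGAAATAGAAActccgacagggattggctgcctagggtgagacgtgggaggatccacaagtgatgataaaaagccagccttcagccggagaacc
The last copy ends 84 bases before the start. Shorter windows around the element follow for 6 other members past 1.2-fold, in which a match that begins with TTTC is read on the reverse strand and neighbouring or overlapping matches are capitalised together.
ISG15: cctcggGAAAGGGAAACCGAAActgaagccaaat
IFI44L: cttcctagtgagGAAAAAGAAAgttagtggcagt
MX1: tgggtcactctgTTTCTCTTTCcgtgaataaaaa
BST2: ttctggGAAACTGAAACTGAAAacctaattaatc
IFI27: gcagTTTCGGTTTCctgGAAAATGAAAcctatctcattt
IFIT1: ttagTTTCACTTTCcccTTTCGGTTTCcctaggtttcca
These stretches lie at chr1:1013378-1013411 (plus strand), chr1:78620363-78620396 (plus), chr21:41431842-41431875 (plus), chr19:17405733-17405766 (minus), chr14:94110624-94110662 (plus) and chr10:89392503-89392541 (plus) in that order. The log2 ratios of the 6 genes, in the same order, were 0.57, 0.86, 0.83, 0.86, 0.63 and 0.30. Members below the rule hold the same letters, among them OAS3 at 0.16, IFIT3 at 0.13 and PLSCR1 at -0.02.

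A single heat shock gene differed strongly. HSPA6 (ENSG00000173110, chromosome 1, 161524540 to 161526910, plus strand), an HSP70 that unstressed cells hardly express, had 1.84 scaled counts in control, 0 with FSH, 2.09 with FSK, 129 with SC79 and 9.90 in the PMA library. It was near 0 in the other libraries except PMA, and the SC79 to control ratio has an interval of 19.1 to 588-fold because the control count is so small. Only 43.3% of its words are its own. With its near copy HSPA7 added the values were 1.84 and 130.3. Of 27 heat shock genes compared, HSPA6 was the 1 higher by the 1.2-fold rule. CHORDC1, an HSP90 co-chaperone, was the 1 lower at -0.29. Both counts are near the shares of all genes, 3.7% higher and 4.5% lower, and the list median was -0.05. HSPA1A and HSPA1B, the main inducible HSP70 genes, summed to 1.11-fold [1.08 to 1.14]. DNAJB1 was at -0.03, BAG3 at 0.05, HSPH1 at -0.14 and HSP90AA1 at -0.24. The heat shock element, searched as GAA, any 2 bases, TTC, any 2 bases and GAA on both strands, was in 7 of 24 matched heat shock genes and in 0.557% of all symbols. The 250 bases before the HSPA6 start at chr1:161524290-161524539, plus strand, hold 1 match, in capitals and on the reverse strand.
HSPA6: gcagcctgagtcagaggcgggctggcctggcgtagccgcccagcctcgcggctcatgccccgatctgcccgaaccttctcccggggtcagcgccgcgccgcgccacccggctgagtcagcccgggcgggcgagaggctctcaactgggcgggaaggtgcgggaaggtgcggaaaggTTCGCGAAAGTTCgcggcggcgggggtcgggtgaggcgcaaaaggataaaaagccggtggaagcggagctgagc
HSPA8, DNAJB6, HSP90AA1, HSP90AB1, HSPD1 and CHORDC1 hold the element as well, at log2 ratios of -0.12, -0.03, -0.24, -0.07, -0.22 and -0.29.

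Metallothioneins, small proteins that bind zinc and copper, were lower with SC79. Of 6 genes of the list compared, 5 were lower by the 1.2-fold rule, where 4.5% of all genes were, and the median was -0.43. MT2A (ENSG00000125148, chromosome 16, 56608199 to 56609497, plus strand) had 22853 scaled counts in control, 24082 with FSH, 18516 with FSK, 16435 with SC79 and 58258 in the PMA library, 0.719 [0.705 to 0.734] fold. SC79 was the lowest of the 5 libraries and PMA the highest. MT1X was at -0.55, MT1F at -0.67 and MT1E at -0.39, and the zinc exporter SLC30A1, controlled by the same factor, at -0.28. The factor's own gene, MTF1, was at 0.05. The MT genes share sequence, and summed over 17 MT1 and MT2 names they were 0.723-fold [0.710 to 0.737]. The metal response element, searched as TGCNCNCG on both strands, was in 4 of 5 matched members and in 16.7% of all symbols, and all 3 matched members that were lower held it. MT2A carries 5 copies in the 250 bases at chr16:56608334-56608583, plus strand, where a match that begins with CG is read on the reverse strand.
MT2A: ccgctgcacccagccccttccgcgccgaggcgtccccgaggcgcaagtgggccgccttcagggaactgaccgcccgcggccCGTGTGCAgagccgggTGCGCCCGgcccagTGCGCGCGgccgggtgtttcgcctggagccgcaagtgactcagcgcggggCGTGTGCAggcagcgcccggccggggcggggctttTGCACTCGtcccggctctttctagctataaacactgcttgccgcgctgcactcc
The last of them ends 47 bases before the RefSeq start.

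Transcripts of the pathway that SC79 addresses lay close to control. AKT1 had 12422 in control and 12525 with SC79, a fold of 1.01 [0.984 to 1.03], and AKT2 was at 0.07. Of 47 genes of AKT and PI3 kinase signalling compared, 0 were higher and 3 were lower by the 1.2-fold rule, a share of lower genes close to the 4.5% of all genes, and the median was 0.01. The 3, named to describe the list, were PHLPP1 (-0.35) and PHLPP2 (-0.35), phosphatases that remove the activating phosphate from AKT, and PIK3CD (-0.28), a catalytic subunit of PI3 kinase. PHLPP1 had 875 scaled counts in control, 794 with FSH, 741 with FSK, 688 with SC79 and 750.3 in the PMA library, and PHLPP2 had 1675 scaled counts in control, 1598 with FSH, 1356 with FSK, 1310.1 with SC79 and 1462 in the PMA library. For both genes every treated library lay below control, and SC79 gave the lowest value of the 5 libraries, followed by FSK. The receptor genes IGF1R and INSR were at 0.07 and 0.09.

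FOXO targets, which active AKT keeps low, lay at control. Of 27 compared, 0 were higher and 1 was lower, where 3.7% and 4.5% of all genes were. The share of lower genes is close to that of all genes, and the median was 0.01. The 1 lower gene was BNIP3, a mitophagy receptor that hypoxia also induces. BNIP3 had 3329 scaled counts in control, 3575 with FSH, 4621 with FSK, 2477 with SC79 and 3802 in the PMA library. The fold was 0.744 [0.706 to 0.784]. TXNIP, a glucose-responsive arrestin, was next at -0.22, below the rule. IGFBP1 (0.06), PDK4 (-0.02), CDKN1B (-0.05), BCL2L11 (0.05) and SESN3 (-0.08) lay near 0, as did the factors FOXO1 (0.04) and FOXO3 (-0.04).

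Steroid-producing genes were higher in part. Of 30 compared, 4 were higher and 2 lower by the 1.2-fold rule, where 3.7% and 4.5% of all genes were, and the median was 0.05. The share of lower genes is close to that of all genes. CYP19A1 (ENSG00000137869, chromosome 15, 51208057 to 51338610, minus strand), the aromatase that turns the supplied androstenedione into oestrone, had 902 scaled counts in control, 2568 with FSH, 27444 with FSK, 1383 with SC79 and 1690.5 in the PMA library, 1.53 [1.41 to 1.67] fold. Its value with SC79 was above control and below the other 3 treatments. STAR, which carries cholesterol into mitochondria, had 1012 scaled counts in control, 3535 with FSH, 10091 with FSK, 1335 with SC79 and 5383 in the PMA library, 1.32 [1.22 to 1.43] fold, likewise the lowest of the treated libraries. AKR1C3, which also reduces androstenedione to testosterone, had 992 scaled counts in control, 1124 with FSH, 1809.9 with FSK, 1570.1 with SC79 and 481 in the PMA library, 1.58 [1.46 to 1.71] fold. FDXR, which feeds electrons to mitochondrial P450 enzymes, was at 0.37, and CYP11A1, which cleaves the cholesterol side chain, at 0.23. The 2 lower genes were NR5A2, a nuclear receptor of steroidogenic cells, at -0.56 and FST, follistatin, at -0.28. FSHR was under the minimum in control, and the interval of its fold, 0.572 to 1.08, spans 1.

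Many genes of DNA replication and G1/S were lower with SC79 than in control. Of 36 compared, 16 were lower by the 1.2-fold rule, where 4.5% of all genes were, and 0 were higher, with a median of -0.24 and 35 below 0. Cyclin E2, CCNE2, was at -0.70, but it is not among the genes with mostly their own sequence. Of the 32 members that are, 14 were lower. The replication factors GINS2 and MCM10 were at -0.54 and -0.52. CDC6, which loads the replicative helicase, had 1456 scaled counts in control, 1385 with FSH, 346 with FSK, 1036 with SC79 and 1178 in the PMA library, 0.712 [0.657 to 0.771] fold. SC79 lay between control and FSK, the lowest library. In mitosis and spindle genes 6 of 35 were lower and 0 higher, with a median of -0.18. MYBL2, a transcription factor of dividing cells, was at -0.42 and CDK1, the mitotic kinase, at -0.31, while AURKB was at 0.05. CDK1 had 3808 scaled counts in control, 2887 with FSH, 853 with FSK, 3061 with SC79 and 2164 in the PMA library. The FSH library was also below control here, and with FSH in place of control as the reference the replication median was -0.18, with 9 of 36 lower, and the mitosis median was 0.12, with 0 lower and 2 higher. The mitosis median thus had the opposite sign against FSH.

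Of 26 p53 targets 5 were higher and 1 lower, where 3.7% and 4.5% of all genes were, with a median of 0.11. The higher genes were TP53I3, a quinone oxidoreductase (0.39), FDXR (0.37), the cell cycle inhibitor CDKN1A (0.32), the repair gene DDB2 (0.29) and BAX (0.28), of which BAX was named after its values were seen. CDKN1A had 25511 scaled counts in control, 26427 with FSH, 32151 with FSK, 31843 with SC79 and 32184 in the PMA library, 1.25 [1.23 to 1.27] fold, so that FSK and PMA gave values like that of SC79. MDM2, an inhibitor of p53 and an AKT substrate, was at 0.10. Genes of amino acid supply under ATF4 had 3 of 33 higher, against the same 3.7%, with a median of 0.08. These were SLC7A11, its partner chain SLC3A2 (0.43) and CHAC1, which degrades glutathione (0.38). Of 24 lysosome and autophagy genes 3 were higher, also against 3.7%, and 0 lower, with a median of 0.10: the proteases CTSD (0.41) and CTSL (0.36) and the calcium channel MCOLN1 (0.29). CTSD is not among the genes with mostly their own sequence, of which 2 of 20 on this list were higher.

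Among ligands and cytokines, 10 of 23 genes compared were lower, where 4.5% of all genes were, and 0 were higher, with a median of -0.22. HBEGF, a ligand of the EGF receptor, had 308 scaled counts in control, 301 with FSH, 325 with FSK, 175 with SC79 and 515 in the PMA library, 0.567 [0.467 to 0.685] fold, lowest with SC79 and highest with PMA. TNFRSF9, a receptor of the TNF family, was at -0.62, the adhesion molecule VCAM1 at -0.57 and the cytokine IL32 at -0.53. The exceptions above 0 were CXCL3 at 0.21 and IL6 at 0.19. Glycolysis and hypoxia genes had 5 of 32 lower, against the same 4.5%, and 0 higher, with a median of -0.13, among them CA9, a carbonic anhydrase (-0.49), PDK1, which slows pyruvate oxidation (-0.38), and LDHA, lactate dehydrogenase (-0.35). CA9 is not among the genes with mostly their own sequence, of which 4 of 27 on this list were lower. LDHA had 32824 scaled counts in control, 35256 with FSH, 42518 with FSK, 25729 with SC79 and 41105 in the PMA library, lowest with SC79. In the extracellular matrix 6 of 34 were lower and 1 higher, where 4.5% and 3.7% of all genes were, with LOX, which crosslinks collagen, at -0.46 and TNC, tenascin C, at -0.44. Angiogenic factors had 5 of 15 lower and 1 higher, beside the same shares, with ANGPT1, angiopoietin 1, at 0.63 and the endothelin receptor EDNRA at -0.67.

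The lowest gene with mostly its own sequence was NPTX1 (ENSG00000171246, chromosome 17, 80467148 to 80477843, minus strand), a neuronal pentraxin, with 2021 scaled counts in control, 1934 with FSH, 2449.8 with FSK, 905 with SC79 and 1021 in the PMA library, 0.448 [0.413 to 0.485] fold. SC79 and PMA both lay far below the other 3 libraries. ESM1, an endothelial-named proteoglycan, had 138 scaled counts in control, 149.9 with FSH, 140.2 with FSK, 64.6 with SC79 and 1689.5 in the PMA library, 0.469 [0.343 to 0.636] fold, and PMA went the other way. ALDH1A3, which makes retinoic acid, had 11615 scaled counts in control, 11042 with FSH, 3079 with FSK, 7049.7 with SC79 and 1510.4 in the PMA library, 0.607 [0.589 to 0.625] fold. Here FSK and PMA were lower than SC79. PABPC4L, a poly(A)-binding protein (-0.90), PPFIA4, a liprin (-0.90), GFRA1, the GDNF co-receptor (-0.82), WNT7B, a Wnt ligand (-0.81), and CDCA7, a cell cycle gene (-0.77), were further members of this group, and WNT7B had 102 and 57.9 scaled counts. Of 9 neuronal genes compared, 3 were higher and 3 lower, where 3.7% and 4.5% of all genes were. UCHL1, a ubiquitin hydrolase, was highest at 0.43.

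Some lists lay at control throughout. The counts in this paragraph stand beside 3.7% of all genes higher and 4.5% lower by the 1.2-fold rule. Ribosomal proteins (44), proteasome subunits (32) and chaperones of the endoplasmic reticulum (22) each had 0 genes past the 1.2-fold rule in either direction, and their medians were 0.01, 0.04 and 0.00. Of 34 genes of cholesterol and fatty acid synthesis 1 was higher, the sterol reductase TM7SF2 (0.38), and 1 lower, the fatty acid elongase ELOVL6 (-0.27). Of 13 cAMP targets 0 were higher and 1 was lower. Among 15 reference genes the median was -0.02, the transferrin receptor gene TFRC was highest at 0.24 and HPRT1 was the 1 lower, at -0.27. Of 13 granulosa markers compared, CYP19A1 was higher and FST and NR5A2 were lower. Among markers of other cell types, endothelial and oocyte ones were low, while epithelial and theca and stroma ones were not. Of 3 endothelial markers compared 1 was lower, and of 7 theca and stroma markers 1 was lower. Of 7 epithelial markers 1 was higher and 1 lower. Endothelial markers summed to 503 in control and 472 with SC79, with CDH5 at 0 in both. Oocyte markers summed to 33.7 and 47.4. Epithelial markers summed to 59814 and 50592, mostly the keratin KRT18, which this line expresses. Theca and stroma markers summed to 936340 and 931380, mostly the collagen COL1A1, with TCF21 at 0 in both.

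**Figure D4:**
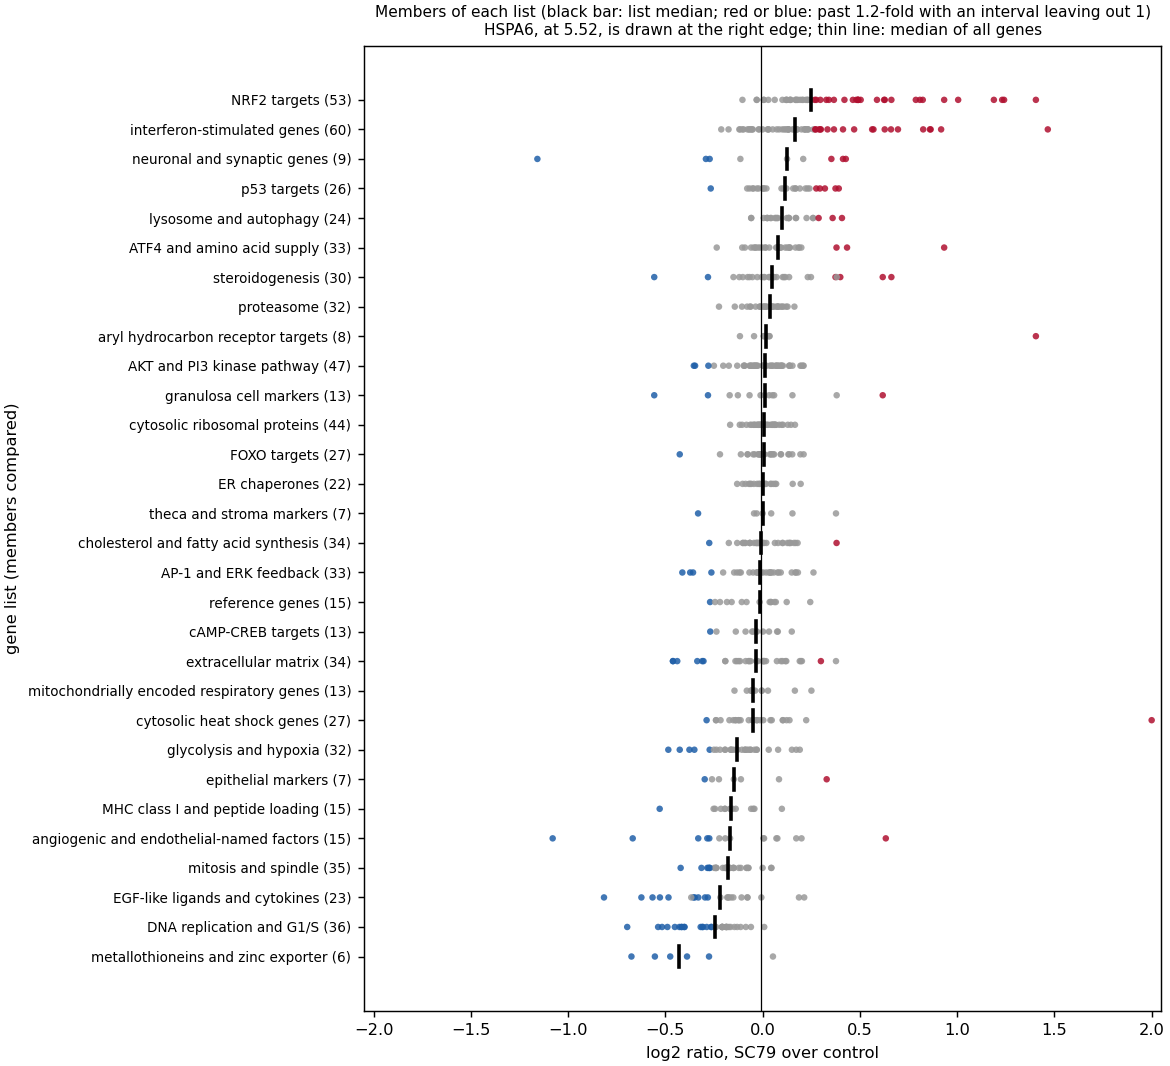
Log2 ratio of SC79 over control (x axis) of every compared member (points) of each list with at least 5 of them, with the list median as a black bar and the number of members in brackets on the y axis; 1 library per side. NRF2 targets have the highest median at 0.25 and metallothioneins the lowest at -0.43.

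The level of SC79 among the 5 libraries differed between the higher and the lower genes. Of the 40 own-sequence genes at least 1.5-fold above control, 27 (67.5%) had their highest value of the 5 in the SC79 library, where 13.5% of own-sequence genes did. Of the 38 at least 1.5-fold below control, 8 (21.1%) had their lowest value with SC79, where 14.5% did. These genes were picked for being above or below control, which raises both shares, so they are given as a description. NQO1, TKT, PIR, FTL, IFI6, MX1, IFI44L and BST2 were highest with SC79. CYP19A1, STAR, CDC6 and CDK1 had values with SC79 that lay nearer to control than to FSK.

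**Figure D5:**
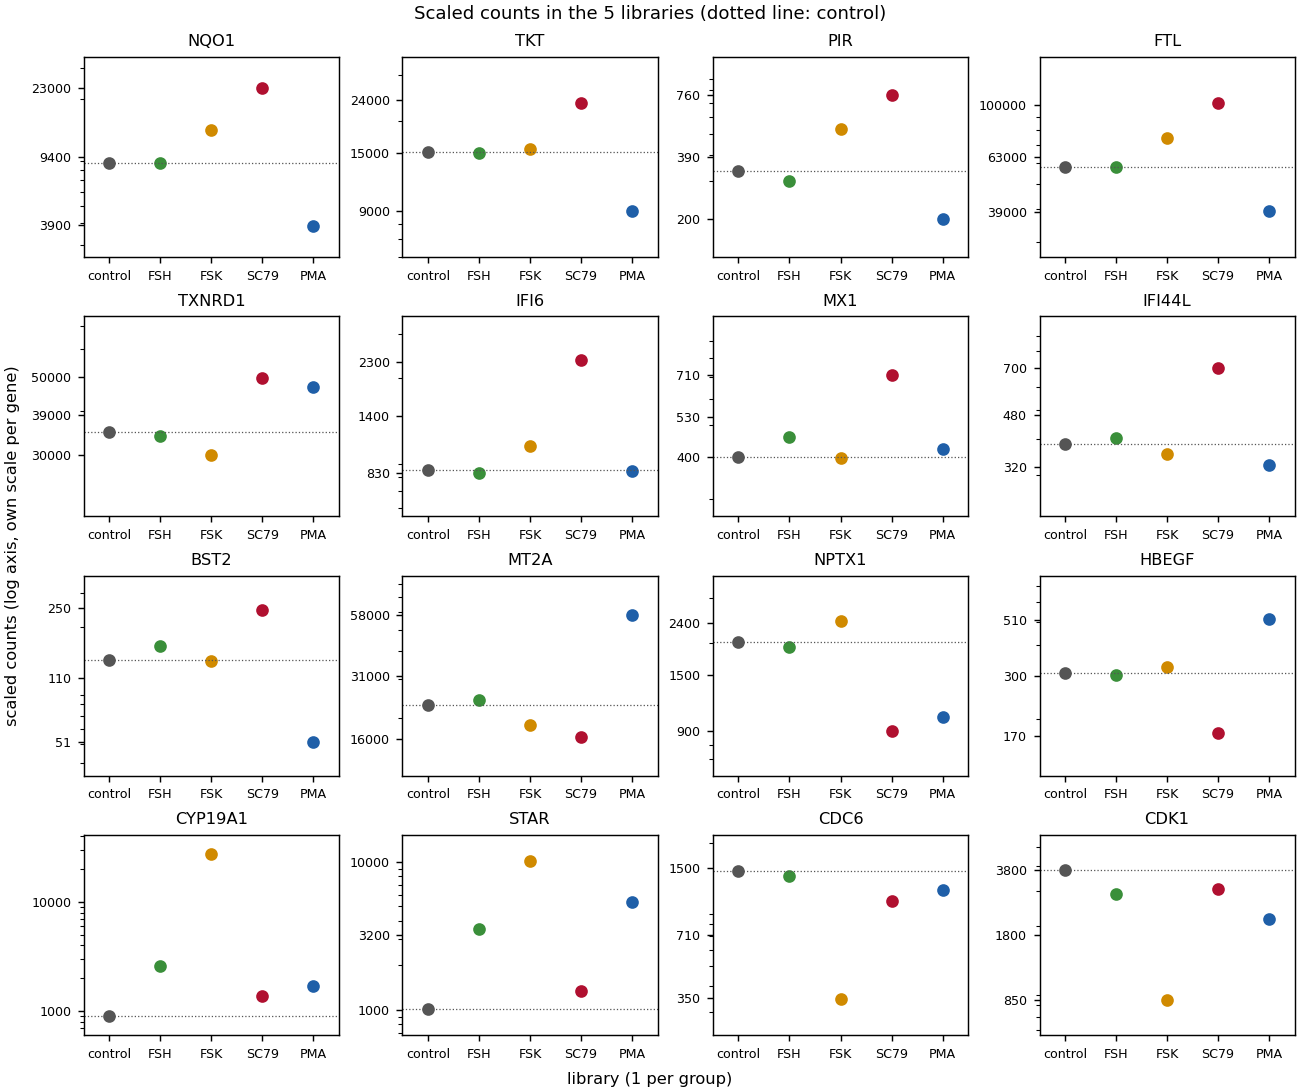
Scaled counts (log y axis, own scale per gene) of 16 genes in the control, FSH, FSK, SC79 and PMA libraries (x axis), 1 point per library, with the control level as a dotted line. The NRF2 targets and interferon-stimulated genes drawn here, NQO1, TKT, PIR, FTL, TXNRD1, IFI6, MX1, IFI44L and BST2, are highest with SC79 (NQO1 at 22952, IFI6 at 2345), while CYP19A1 peaks with FSK at 27444.

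The transcripts of some genes shared the direction of the gene sum, and those of others did not. The 5 NQO1 transcripts with at least 100 scaled counts had log2 ratios of 0.85 to 1.51, and the 2 of IFI6 had 1.478 and 1.501. TXNRD1 was less even. Of its 10 transcripts, the most abundant was at 0.32, the one with 3045 and 6244 scaled counts at 1.04, another was lower at -0.67, and one had 0 in control and 174 with SC79. IL32 had 8 transcripts between -2.197 and -0.434, and one with under 1 scaled count in control and 338 with SC79. The 3 of CYP19A1 were at 0.20, 0.47 and 0.96.

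The authors' deposited table gives a log2 fold change and p-values for each transcript with SC79 against control. It also holds a comparison for a group labelled LH, which is not among the 5 libraries. With 1 library per group, these p-values measure no spread between cultures. The dispersion behind them is not given in the sources used here. An adjusted p-value under 0.05 in the authors' deposited table was held by 3317 transcripts, 1796 higher and 1521 lower with SC79. Of the 3317 transcripts called in the authors' deposited table, 3180 had under 1 estimated count in one of the 2 libraries. Of the 3135 called transcripts that belong to compared genes, in the authors' deposited table, 2877 (91.8%) sat in genes whose summed count was within 1.2-fold, and 326 genes held called transcripts in both directions. Of all 12484 genes compared, 2381 held a transcript called in the authors' deposited table. Beside that share, such a transcript in the authors' deposited table was held by 6 of the 40 own-sequence genes at least 1.5-fold higher. It was held by 10 of the 38 at least 1.5-fold lower. Every abundant transcript of NQO1, IFI6, PIR and NPTX1 had an adjusted p-value of 1 in the authors' deposited table. HSPA6 had a log2 fold change of 6.00 there and an adjusted p-value of 0.00643 in the authors' deposited table. An HSPA8 transcript with under 1 estimated count in control and 864 scaled counts with SC79 had a log2 fold change of 12.8 in the authors' deposited table, while the HSPA8 gene sum was at -0.12.

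Genes that share sequence held most of the highest ratios. Of the 8 highest ratios without the word filter, NQO1 and IFI6 had mostly their own sequence. ITGB1P1, a processed pseudogene, had 0 in control, 0.411 with FSK and 710.2 to 1057 in the other 3 libraries. C1QTNF3-AMACR, a read-through gene, was at 1.91 with 4.01% own words, and SULT1A4, a sulfotransferase copy, at 1.38 with 2.35%. Among the 8 lowest, leaving out clone names, PLA2G4B was at -1.62 with 26.5%. Reads of such genes can be assigned to either copy, so these ratios are uncertain.

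The log2 ratio moved weakly with base composition. Over the 12286 genes with a matched transcript, Spearman's rho was 0.30 with GC content and -0.22 with length, as a description across genes of the same 2 libraries. From the lowest to the highest of 5 equal classes of GC content the median ratio went from -0.07 to 0.05. The 39 own-sequence genes at least 1.5-fold higher with a value had a median GC of 52.3%, the 38 lower ones 45.4% and all genes 48.3%. With the ratios centred within bins of GC, an alternative chosen after the data were seen, 27 of 53 NRF2 targets and 16 of 59 interferon-stimulated genes were higher, 0 of either were lower, and 13 of 36 replication genes were lower. Lower genes also numbered 3 of 35 for mitosis, 8 of 23 for ligands and cytokines and 4 of 6 for metallothioneins. Without centring these 3 counts were 6, 10 and 5.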

How the data were processed

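Polyadenylated RNA from pools of KGN cultures was analysed in 5 libraries, 1 per group. Per the submitters' processing notes the reads went through Trimmomatic, kallisto and edgeR, without versions, and the transcript index and genome build are, for the sources used here, not given. The authors deposited estimated counts per transcript, a normalized signal that equals those counts times 1 constant per library, and a table with a log2 fold change, p-value and adjusted p-value per transcript. Of 179973 transcripts, 303 had no gene name and stayed out (at most 0.068% of a library's counts), 14 symbols turned into dates were restored, and 89.6% had identifier and version in GENCODE release 29, the source of coordinates on GRCh38. Estimated counts were summed over 35453 gene names and scaled by TMM factors. The factors came from the rounded sums with edgeR 4.0.16 in R 4.3.3, and the scaled sums themselves were not rounded first. Log2 ratios carried a pseudocount of 1, and genes needed 100 scaled counts in SC79 or control. Exact conditional binomial (Clopper-Pearson) 95% intervals were taken from rounded estimated counts and cover counting error only. They leave out variation between cultures and error in assigning reads to transcripts. No molecular identifiers tell read copies apart, so copies count as separate reads. With 1 library per side no test was made. Calculations used Python 3.11.15, numpy 2.4.6, pandas 2.3.3, scipy 1.17.1 and matplotlib 3.10.9, and the comparison was tested on simulated data.

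Genes and lists were chosen with earlier results of these data known. The named genes are the top 15 and bottom 15 by ratio with at least 80% own 31-base words, the 4 highest and 4 lowest of each of 34 lists, any member of the NRF2, interferon, heat shock, metallothionein, AKT and FOXO lists, and the 8 highest and 8 lowest without the word filter as uncertain. TEX15, MARCH1 and some others of these are not reported here, and a few list members are not drawn. Alternatives were total count scaling, DESeq2 1.42.0 size factors, the authors' signal, pseudocounts of 0.5 and 10, minimums of 20, 500 and none, own-sequence genes, protein-coding transcripts, and 2 other references. Centring on GC content in 20 bins, the signal relative to all genes and sums over gene copies were added after the data were seen. RefSeq promoters (GRCh38.p14) supplied the sequences, and 0 sample columns were left unmatched.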

Additional observations from a re-analysis of the deposited data

How the results depend on the processing

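With 1 library per group no replicate could be left out. No paired analysis was possible because each group has 1 library. DESeq2 size factors and both other pseudocounts left all counts of genes within 1.5 times. Total count scaling did so too. Of calls by the 1.2-fold rule, 45.1% were higher, against 55.5% with total counts, 1.24% with the authors' normalized signal and 47.0% with GC centring. In the order 2-fold higher, 2-fold lower, 1.5-fold higher, 1.5-fold lower, 1.2-fold higher and 1.2-fold lower, the authors' normalized signal gave 16, 17, 36, 414, 86 and 6851 genes, a minimum of 500 gave 6, 1, 23, 12, 176 and 350, and no minimum gave 2082, 1072, 3003, 2734 and 811 for the first 5. A minimum of 20 gave 119 and 71 at 2-fold and 387 and 286 at 1.5-fold. Own-sequence genes alone gave 4 and 2 at 2-fold and 40 higher at 1.5-fold, and protein-coding transcripts alone gave 17 higher at 2-fold. Against the median of the 4 other libraries 68 genes were 2-fold and 181 were 1.5-fold lower, and 731 were 1.2-fold higher. Against FSH 41 were 2-fold and 121 were 1.5-fold lower. Under the authors' signal, which lowers all genes by its own scaling, list medians were -0.022 for NRF2 targets, -0.11 for interferon-stimulated genes, -0.70 for metallothioneins, -0.44 for MHC class I, -0.52 for replication, -0.45 for mitosis, -0.52 for ligands and cytokines, -0.40 for glycolysis, -0.27 for FOXO targets, -0.26 for the AKT pathway, -0.16 for p53 targets and -0.17 for lysosome genes, and IFIH1 lay at -0.0021. Metallothioneins were at -0.55 without a minimum and -0.57 against FSH. Against the median of the 4 others the medians were -0.085 for replication, 0.56 for mitosis, -0.46 for ligands and -0.01 for lysosome genes, and against FSH mitosis was at 0.12. The median of angiogenic factors was 0.0036 with a minimum of 20, 0.0053 with none and 0.0084 against FSH. Single genes turned sign against the median of the 4 others (CDK1 0.28, CTSL -0.14, CYP19A1 -0.62, MYBL2 0.21, STAR -1.74, TNC 0.084, VCAM1 0.16) and against FSH (CDK1 0.085, CYP19A1 -0.89, STAR -1.40). The cause of these changes was not tested, except that the minimums and the own-sequence filter change the number of genes compared. The depth limits genes near 100 counts to differences beyond 0.750 to 1.33-fold.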
